A study of Mus musculus with 2 samples.

Results

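The MHC class I presentation genes examined here are B2m, H2-K1, H2-D1, H2-T23, Tap1, Tap2, Tapbp, Nlrc5, Erap1 and Calr, 10 genes chosen by name from the class I pathway, with earlier results of these data known. They were measured in splenic CD4+ T cells sorted by flow cytometry as TCRbeta-high and CD4-positive, and enriched in naive cells through low CD44 on the surface. One array held RNA of Taf7 -/- cells (TAF7f/- 8EIII-cre+), in which Cre had acted on the floxed allele, and 1 array held RNA of Taf7 +/- cells (TAF7 f/- 8EIII-cre -). Both genotypes carried 1 Taf7 allele that was null from the start, and the background strain of both was a C57/BL6 and 129 mix. Only the knockout carried Cre, so that Cre itself and the loss of Taf7 cannot be told apart. What drives the Cre, the age of the mice and whether RNA of several animals was pooled are not stated in the labels. With 1 array per genotype no value below has an error from replicates, and no test between the genotypes was made.

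Class I molecules display peptides from inside the cell to CD8 T cells and natural killer cells. A polymorphic heavy chain pairs with the invariant light chain beta 2-microglobulin, and peptides made by the proteasome are pumped into the endoplasmic reticulum, trimmed there and loaded onto the pair with the help of chaperones. All nucleated cells make class I molecules, lymphocytes in large amounts. TAF7 belongs to TFIID, the complex that recognises core promoters, where it binds TAF1 and inhibits its acetyltransferase activity, and class I promoters are classical targets on which this control was studied.

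Of the 10 genes, 7 had a transcript cluster, the unit that the array reports, with no other gene symbol. These were B2m, Tap1, Tap2, Tapbp, Nlrc5, Erap1 and Calr, among 19938 genes with such a cluster in all. Where a gene had several, the cluster of highest mean was taken. The other 3, H2-K1, H2-D1 and H2-T23, were named only by clusters that also name other genes, and these clusters are given separately. All 7 genes passed the filter on low signal, a mean over both arrays of at least 7.71 on the log2 scale, as did 10457 genes in all.

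Promoter sequences are shown for members the study of Taf7 bears on most directly, H2-K1, H2-D1 and B2m, and for the gene pair around Tap1. They were taken from RefSeq for build GRCm38.p6, the C57BL/6J reference and not the mice studied, which held an entry for 8 of the 10 members, all but Tap2 and Nlrc5. The 250 bases before each start were searched on both strands. The first set shows the stretch from TGACG, the core of a cyclic AMP response element, to the CCAAT box, which reads ATTGG on this strand; both are in capitals. It lies at chr17:34000359-34000388 on the minus strand for H2-K1, at chr17:35262993-35263022 on the plus strand for H2-D1 and at chr2:122147609-122147638 on the plus strand for B2m.
H2-K1: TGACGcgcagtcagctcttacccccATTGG
H2-D1: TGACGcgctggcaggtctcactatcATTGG
B2m: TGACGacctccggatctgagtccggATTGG

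In the 3 genes shown the starts of these motifs were 25 bases apart, and the letters between them differed. H2-K1 and H2-D1 shared 23 of the 30 bases, H2-K1 and B2m 13, and H2-D1 and B2m 12. These counts include the 5 letters of the motif at each end, which match because the stretches were cut at the motifs. TGACG stood in 4 of the 8 members with an entry, the fourth being Tap1, and in 17.8% of all 32851 promoters. The CCAAT box stood in 7 of the 8, all but Erap1, and in 33.8% of all promoters. Tap1 held both motifs in another arrangement, the CCAAT box 222 bases before the start and TGACG 86 bases before it. H2-T23 held a CCAAT box and no TGACG.

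Upstream of that stretch H2-K1 and H2-D1 each held a kappa B motif (GGGNNTTCC, in capitals), 70 bases before TGACG in both. These stretches lie at chr17:34000433-34000462 on the minus strand and at chr17:35262919-35262948 on the plus strand.
H2-K1: ggctGGGGATTCCccatctccacagtttca
H2-D1: ggctGGGGATTCCccatctcctcagtttca

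The 2 stretches were identical in 29 of 30 bases. No other member with an entry held this pattern of 9 letters, which 4.98% of all promoters held. Kappa B sites spelled otherwise were not searched for, so this does not show that the other members lack one. On the array, too, H2-K1 and H2-D1 were not separated, since their clusters each name both.

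The B2m promoter, from 150 bases before the start at chr2:122147537-122147686 on the plus strand, is shown because B2m had a cluster of its own. Capitals mark TATAA, the core of an interferon response element (GAAANNGAA), TGACG and the CCAAT box.
B2m: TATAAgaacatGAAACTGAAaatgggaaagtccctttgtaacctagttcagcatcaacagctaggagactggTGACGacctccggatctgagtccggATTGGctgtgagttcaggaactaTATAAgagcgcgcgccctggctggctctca

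Among the 8 members, TATAA stood only in B2m and H2-D1 within the window, against 22.8% of all promoters. For H2-K1 2 starts were listed. From the start used for its stretches, the kappa B stretch began 115 bases upstream, against 175 for H2-D1. The windows of these genes therefore do not cover matching bases, and bases after the H2-K1 start were not searched for TATAA. The interferon response core in the spelling searched stood in B2m, H2-T23 and Erap1, against 7.13%. Interferon response elements spelled otherwise were not searched for, so the other members are not shown to lack one. A GC box (GGGCGG) stood in Tap1, Tapbp and Calr, against 32.7%. Calr, which encodes a calcium-binding chaperone, held the only endoplasmic reticulum stress element, a CCAAT box and CCACG at a fixed distance, which stood in 0.113% of all promoters. It lies at chr8:84847075-84847093 on the minus strand, and reads here from its CCACG end, on the opposite strand of the motif; it contains 1 of the CCAAT boxes of Calr.
Calr: CGTGGTCGACCCTCATTGG

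Each match describes letters in a window and does not show that a factor binds there.

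The first question was how far the targeted gene differed. Taf7 gave 8.34 with heterozygous RNA and 7.79 with knockout RNA, a log2 difference of -0.55 (1.46-fold lower). Whether its probes fall inside the deleted stretch is not stated, so this value is a weak check of the genotype. Taf1, the TFIID subunit bound by TAF7, differed by -0.13. The labelled cell type was checked by markers. All 9 measured T cell markers were above the filter, with Cd4 at 12.99 and 12.77 and Cd3e at 13.49 and 13.50 in heterozygote and knockout. Of markers of other cells, 1 of 8 for B cells, 0 of 10 for myeloid and dendritic cells, 1 of 5 for natural killer cells and 0 of 2 for erythroid cells were above it. Of the CD8 pair, Cd8a lay below the filter at 7.63 and 7.65. Cd8b1 lay well above it, with a mean over both arrays of 10.37 and a difference of -0.26. The 9 T cell markers had a median difference of -0.17, with 3 above 0 and 6 below. Cd44, the gene of the marker by which naive cells were enriched, gave 9.56 and 8.21, a difference of -1.35 (2.55-fold lower), so the samples differed in a sorting marker. The part of this in the differences below was not tested. Over all genes above the filter the median difference, always knockout minus heterozygote, was -0.05.

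The class I genes were nearly level between the genotypes. The 7 differences ran from -0.18 to 0.09, with a median of -0.00, and 3 were above 0 and 4 below. Over all genes above the filter 59.1% were below 0, and the counts of higher and lower members became 5 and 2 under 3 ways of removing a shift between the arrays. That shift was not the same at all signals: over all rows the knockout array had the higher median, 7.75 against 7.68. None of the 7 differed by 1.5-fold, where 3.62% of all genes did, 3.17% lower and 0.449% higher. At such a share a count of 0 among 7 says nothing particular about these genes. The median size of the difference, its sign aside, was 0.06 for the members and 0.15 for all genes. Genes of high signal varied less between the arrays: the robust SD of the difference (the median absolute deviation, scaled to match the SD of a normal distribution) was 0.22 over all genes and between 0.14 and 0.17 among the 500 genes nearest in mean to each member. Measured against those neighbours, each member lay within 1 robust SD of their median, from -0.79 for Erap1 to 0.85 for Tap1.

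**Figure D1:**
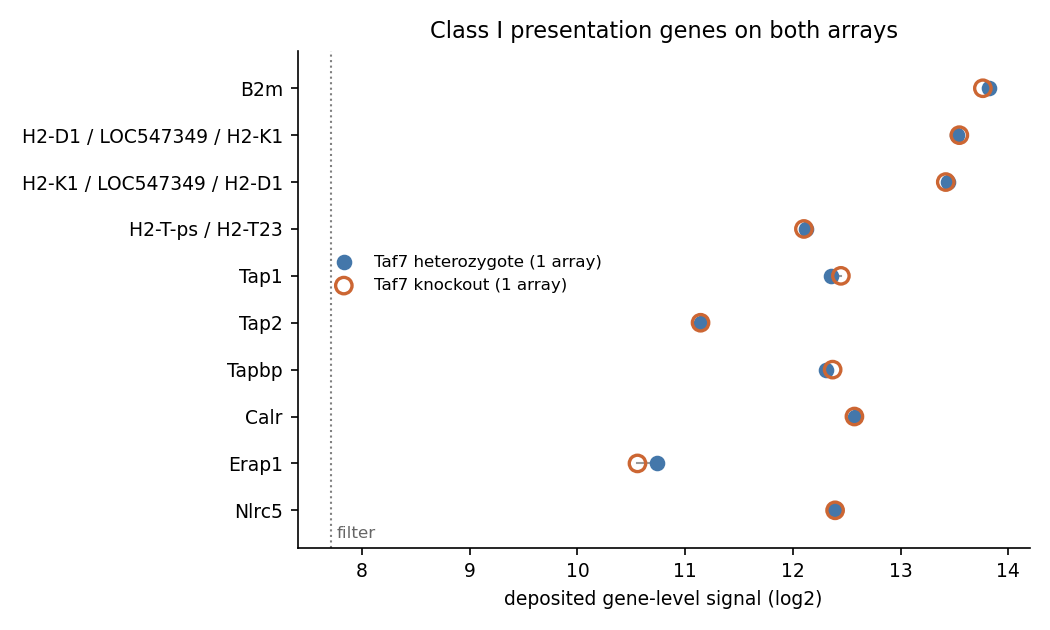
Deposited log2 signal (horizontal axis) of the class I presentation genes with heterozygous RNA (filled blue) and knockout RNA (open orange), 1 array each, with no error bars; slashes join the symbols of clusters that name several genes, and the dotted line is the filter at 7.71. The 2 points of a gene nearly coincide, Erap1 showing the widest gap at -0.18; levels of different genes are not comparable, since their probes differ.

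Light and heavy chains came first. B2m, the light chain shared by all class I molecules, gave 13.82 in heterozygous and 13.76 in knockout cells, a difference of -0.06 (1.04-fold lower), and 79.6% of all genes differed more. Only 0.25% of the rows had a higher mean than B2m, and both arrays ended at 14.56, so that its signal lay near the top of the scale. Whether probes were saturated there was not tested. H2-K1 and H2-D1 encode the classical heavy chains, which present most peptides. The cluster that names H2-D1 first, with LOC547349 and H2-K1, gave 13.53 in the heterozygote against 13.55 in the knockout, a difference of 0.02. The cluster that names H2-K1 first, with the same partners, gave 13.44 against 13.42, a difference of -0.02. These clusters cannot be assigned to 1 gene, and they stood level by less than 0.14, the robust SD among genes of like signal. H2-T23, which encodes the nonclassical molecule Qa-1 recognised by a receptor of natural killer cells, shared its cluster with H2-T-ps. That cluster gave 12.12 and 12.10, a difference of -0.02.

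Added to the 7 members, these 3 clusters left the median at -0.00, with 4 of the 10 above 0. Other clusters that name several class I genes spread wider. The cluster of H2-T9, H2-T22 and H2-T10 measured 11.74 against 11.98 in the knockout, a difference of 0.24, and 30.7% of all genes differed more. That of H2-Q6 and H2-Q8 differed by -0.14 and that of H2-Q1 and H2-Bl by 0.14. Over all 6 such clusters above the filter, 3 differences were above 0 and 3 below, and the median was 0.00. None reached 1.5-fold. Below the filter lay 1 more, of H2-T3 and H2-T18, at 0.04.

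Peptide transport and loading genes were as level. Tap1 and Tap2 encode the paired subunits of the transporter that carries peptides into the endoplasmic reticulum. Tap1 gave 12.36 and 12.45 in heterozygote and knockout, a difference of 0.09 (1.06-fold higher), the highest of the 7 members, and 68.9% of all genes differed more. Tap2 gave 11.15 and 11.14, a difference of -0.01. Both subunits thus differed by less than 1.1-fold. Tapbp encodes tapasin, which tethers empty heavy chains to the transporter. Its own cluster gave 12.31 and 12.37, a difference of 0.06 (1.04-fold higher). A pair of other clusters named Tapbp together with Rps3a1, a ribosomal protein gene, and differed by -0.31 and -0.32. The cluster with Rps3a1 alone differed by -0.77, and that with Tapbp alone by 0.06, so the differences of the shared clusters lay between these. Their signals did not: the shared clusters had means of 12.72 and 12.66, against 12.34 for Tapbp alone and 10.54 for Rps3a1 alone. The part of each gene in the shared clusters was not tested. Calr, the lectin chaperone calreticulin of the loading complex, gave 12.57 with either RNA, a difference of -0.00.

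Erap1 stood lowest of the members. This aminopeptidase of the endoplasmic reticulum trims peptides to the length that class I molecules bind. It gave 10.74 in heterozygous and 10.56 in knockout cells, a difference of -0.18 (1.13-fold lower), and 42.8% of all genes differed more. The gap was close to 0.17, the robust SD of genes of like signal, and became -0.11 when a smooth trend of the difference with signal was removed.

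Nlrc5, the class I transactivator, which enters the nucleus and joins the factors bound at class I promoters, was measured many times over on the same arrays. It was covered by 19 clusters, each with no other symbol, all of the same 2 RNA samples. The cluster of highest mean gave 12.39 with either RNA, a difference of 0.00. Across the 19 clusters the difference ran from -0.15 to 0.20 with a median of 0.02 and a mean of 0.03 ± 0.11 (SD, n = 19 clusters, not replicates), and 11 were above 0 and 8 below. The differences of the other members lay inside that range, apart from Erap1, which lay below the lowest Nlrc5 cluster. The SD of the difference among clusters of a gene was taken for 632 genes with at least 2 clusters above the filter. It had a median of 0.06 and a 95th percentile of 0.34. Its lowest value was 0, from clusters of the same difference, and whether such clusters share probes was not tested. Among the 11 genes with at least 10 clusters, Nlrc5 included, the median SD was 0.23, and 7 had a larger SD than Nlrc5. Such spread covers probe error on these arrays and leaves out differences between animals.

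**Figure D2:**
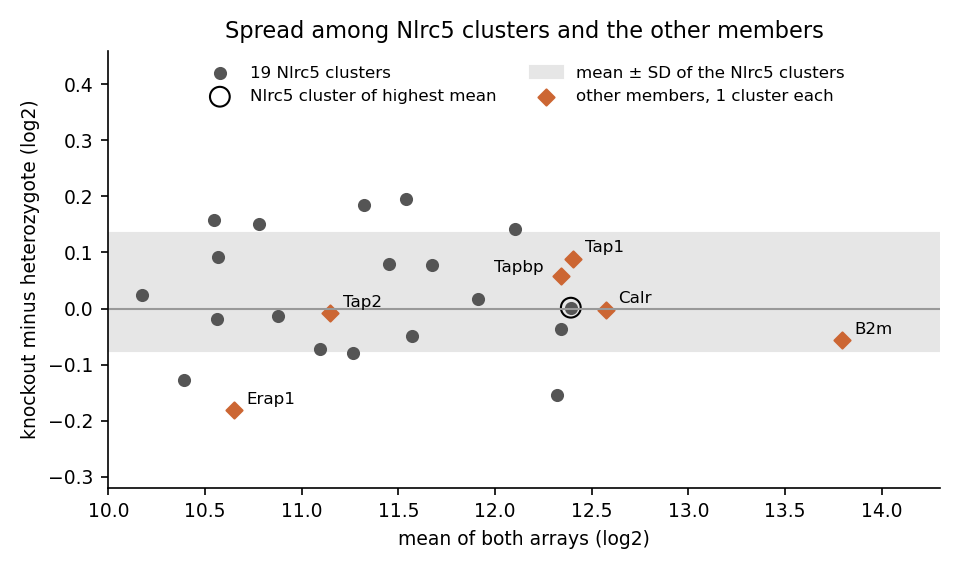
Log2 difference, knockout minus heterozygote (vertical), against the mean of both arrays (log2, horizontal) for the 19 Nlrc5 clusters (grey), the Nlrc5 cluster of highest mean (ringed) and the other 6 members with a cluster of their own (orange); the band is the mean ± SD of the Nlrc5 clusters. All members but Erap1, at -0.18, lie inside the range of the Nlrc5 clusters, -0.15 to 0.20.

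**Figure D3:**
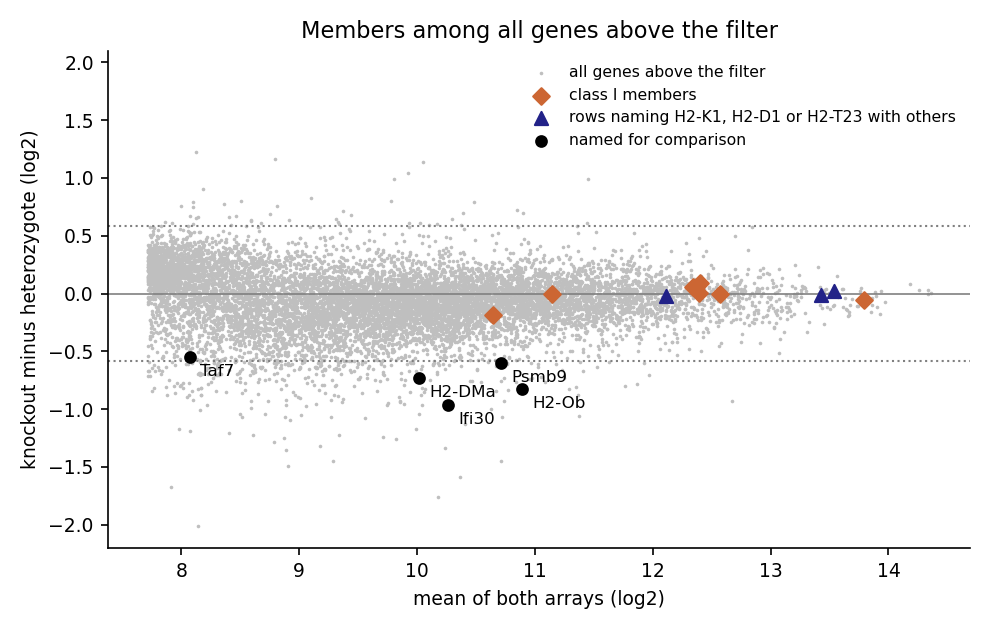
Log2 difference, knockout minus heterozygote (vertical), against the mean of both arrays (log2, horizontal) for 10457 genes above the filter (grey), with the members (orange), the clusters naming H2-K1, H2-D1 or H2-T23 with other genes (blue) and genes named for comparison (black); dotted lines mark 1.5-fold. The class I points lie along 0, while H2-DMa, H2-Ob and Ifi30 lie below the lower line, Psmb9 at -0.60 just past it (-0.55 after centring) and Taf7 at -0.55 just above it.

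The neighbour of Tap1 stood lower in the knockout sample. Psmb9, which encodes a catalytic subunit of the immunoproteasome, starts on the opposite strand, and 225 bases separate the starts of both genes. Psmb9 gave 11.01 in heterozygous and 10.41 in knockout cells, a difference of -0.60 (1.52-fold lower), against 0.09 for Tap1. Each had 1 cluster, so neither value has a second measurement. The stretch between the starts, chr17:34187331-34187555, is shown on the plus strand, the strand of Tap1, with a CCAAT box near the Psmb9 end, a GC box (CCGCCC on this strand) and TGACG in capitals.
Tap1 and Psmb9: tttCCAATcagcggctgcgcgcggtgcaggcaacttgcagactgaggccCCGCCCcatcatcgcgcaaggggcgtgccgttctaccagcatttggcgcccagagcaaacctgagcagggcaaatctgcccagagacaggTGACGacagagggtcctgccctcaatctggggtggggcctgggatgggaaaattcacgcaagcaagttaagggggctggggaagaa

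Of 10 immunoproteasome and related genes, Psmb9 alone passed 1.5-fold, against 3.17% of all genes, and by a narrow margin. Its difference became -0.55 with the median of all genes subtracted and -0.53 with the trend removed or after quantile normalization, and under each of these 3 settings none of the 10 passed. The median of that list was -0.03, with 3 genes above 0 and 7 below. The other inducible catalytic subunits, Psmb8 and Psmb10, differed by -0.17 and -0.03. Psmb7, the standard subunit that Psmb10 replaces, differed by -0.27, and Psmb6, which Psmb9 replaces, by 0.04. Psme3, a proteasome activator subunit, was highest at 0.09, and Psme1 and Psme2, which form the interferon-inducible activator, differed by 0.04 and -0.00.

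Other class I heavy chain and class I-like genes differed in both directions, each by less than 1.5-fold. Of 34 listed, 23 had a cluster of their own and 11 were above the filter, 6 of them above 0 and 5 below, with a median of 0.06. Mr1, which presents vitamin B metabolites to mucosal-associated invariant T cells, gave 10.55 and 10.02, a difference of -0.54 (1.45-fold lower). H2-T24 differed by -0.44 and H2-Q5 by -0.39. At the other end stood Cd1d2 at 0.40, Cd1d1, which presents lipids to natural killer T cells, at 0.35, and H2-M10.2 at 0.33. Cd1d1 gave 10.19 and 10.54, whereas Cd1d2 and H2-M10.2 had means close to the filter. The median size of these 11 differences was 0.33, against 0.06 for the members. These sets were not matched for signal, and genes of high signal varied less between the arrays. Means of the 11 ran from 7.78 to 12.55, whereas Erap1, the weakest member, had a mean of 10.65. The part of signal in the gap was not tested.

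Chaperones of the endoplasmic reticulum and the translocon, 11 above the filter, had a median of -0.08, with 5 above 0 and 6 below and none past 1.5-fold. Pdia3, the oxidoreductase ERp57 that sits with tapasin in the loading complex, was lowest at 12.10 and 11.71, a difference of -0.39. Tapbpl, which encodes the tapasin-related peptide editor, differed by -0.15 and Hsp90b1 by -0.13. Sec61b at 0.19, Sec61a1 at 0.14 and Hspa5 at 0.05 were highest. Of 8 cytosolic and other peptidases 3 were above 0 and 5 below, with a median of -0.17. Lap3, leucine aminopeptidase, differed by -0.50, Blmh by -0.38 and Nln by -0.27, whereas Npepps at 0.05, Tpp2 at 0.04 and Ide at 0.00 stood level.

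Factors that act at class I promoters were level as well. The 18 regulators above the filter had a median of -0.02, with 7 above 0 and 11 below, and ran from -0.18 for Sp1 to 0.11 for Usf1. Atf1 at -0.18 and Nfyc at -0.17 came next to Sp1, and Nfya at 0.10 and Irf1 at 0.09 next to Usf1. Rfx5, Rfxap and Rfxank, the complex that NLRC5 joins, differed by -0.02, -0.03 and -0.01. The interferon receptor chains, whose signal raises class I genes, were all lower, Ifnar2 at -0.34, Ifngr1 at -0.32, Ifngr2 at -0.24 and Ifnar1 at -0.22. None of the 11 genes of that list passed 1.5-fold. The list had a median of -0.10, 3 genes above 0 and 8 below, where 59.1% of all genes were below 0. Its median became -0.04 with the trend of the difference with signal removed and -0.03 after quantile normalization. Socs1, a feedback inhibitor of the pathway, was highest at 0.36, followed by Socs3 at 0.19 and Jak1 at 0.03.

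**Figure D4:**
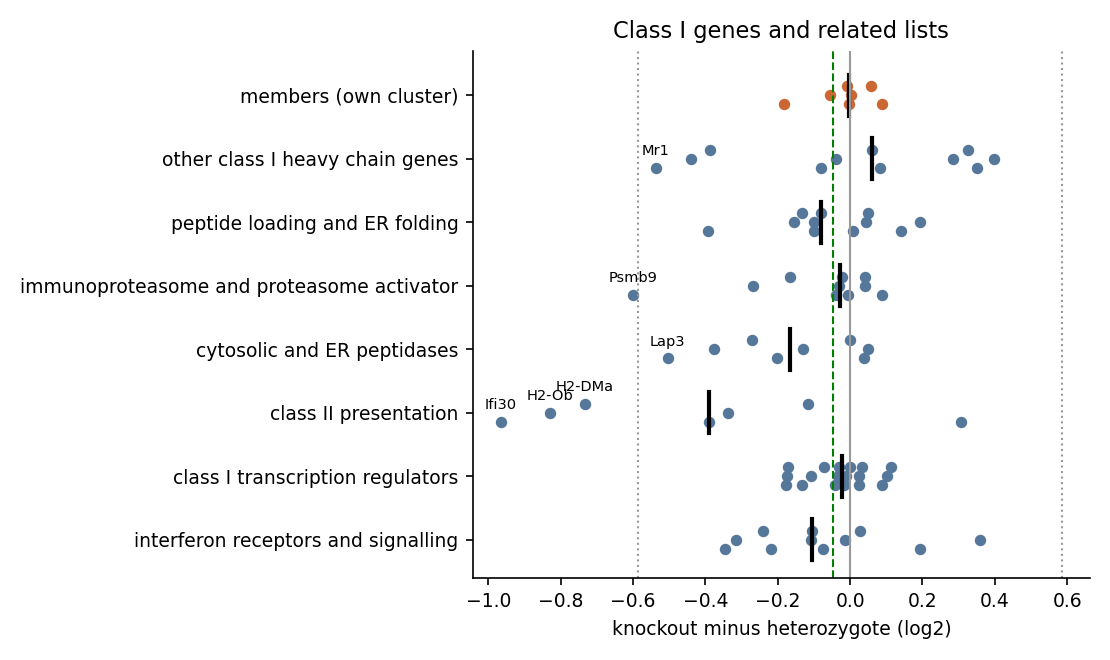
Log2 difference, knockout minus heterozygote (horizontal), of each gene above the filter in the class I list and 7 related lists (rows; points are spread vertically for legibility), with the median of each list as a black bar; dotted lines mark 1.5-fold and the dashed green line the median of all genes, -0.05. The members cluster near 0, and 3 class II presentation genes lie past the lower 1.5-fold line, as does Psmb9 by a margin lost after centring (-0.55).

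Class II presentation genes were set beside them because they serve the other presentation pathway. Of 12 measured, 7 were above the filter, 1 above 0 and 6 below, with a median of -0.39 that became -0.06 when the weak genes were included. Past 1.5-fold were 3 of the 7, against 3.17% of all genes. Ifi30, a lysosomal thiol reductase, gave 10.74 and 9.78, a difference of -0.96 (1.95-fold lower). H2-Ob, a chain of an inhibitor of class II loading, gave 11.31 and 10.48, a difference of -0.83. H2-DMa, a chain of the loading catalyst, gave 10.38 and 9.65, a difference of -0.73. H2-Oa differed by -0.39, short of 1.5-fold. The cluster of H2-DMb2 and H2-DMb1 was left out of the list because it names several genes. It lay below the filter, with a mean over both arrays of 7.42 and a difference of -0.04. The class II chains themselves were weak: H2-Aa stood at 6.06 and 6.13 and H2-Ab1 at 6.39 and 6.64, both below the filter, and H2-Eb1 just above it at 8.33 and 8.64. Ciita, the class II transactivator, stood at 7.37 with either RNA. Cd74, the invariant chain, differed by -0.12 and the protease gene Ctss by -0.34.

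Of the B cell markers, Cd79b stood at 8.24 and 8.23 and Ms4a1 at 5.38 and 5.73. The 10 myeloid and dendritic markers had means below the filter. Itgam stood at 7.83 and 7.04 (-0.79) and Fcgr3 at 7.67 and 7.23 (-0.44). The others ran from -0.07 for Itgax to 0.19 for Csf1r, with Lyz2 at 6.49 and 6.54. Nkg7, the natural killer marker above the filter, stood at 8.36 and 7.95, and Klrk1, below it, at 5.29 and 5.78. In these bulk samples fewer cells of a type and less RNA per cell cannot be told apart, and the part of other cells in the class II differences was not tested. Among T cell markers Thy1 differed by -0.93, Cd3d by -0.50, Cd28 by -0.42, Cd4 by -0.22, Cd2 by -0.17 and Cd5 by -0.07, whereas Cd3e, Cd3g and Cd247 lay between 0.01 and 0.05.

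Along the major histocompatibility complex the members lay among genes of unlike difference. Of 126 protein-coding genes from Daxx to H2-T23 in the reference order, 80 were measured above the filter, 42 above 0 and 38 below, with a median of 0.02. Past 1.5-fold were 4 of the 80, all lower, against 3.17% of all genes. They were H2-Ob, H2-DMa, Psmb9 and Ddr1, a collagen receptor gene at -0.70. Centring and quantile normalization left 3, without Psmb9, and removal of the trend left 2, H2-Ob and H2-DMa. Tap1 and Tap2 stand in the same segment as H2-DMa, Psmb9 and H2-Ob, with Psmb8 between them, and differed by 0.09 and -0.01 where these 3 neighbours differed by -0.60 to -0.83.

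**Figure D5:**
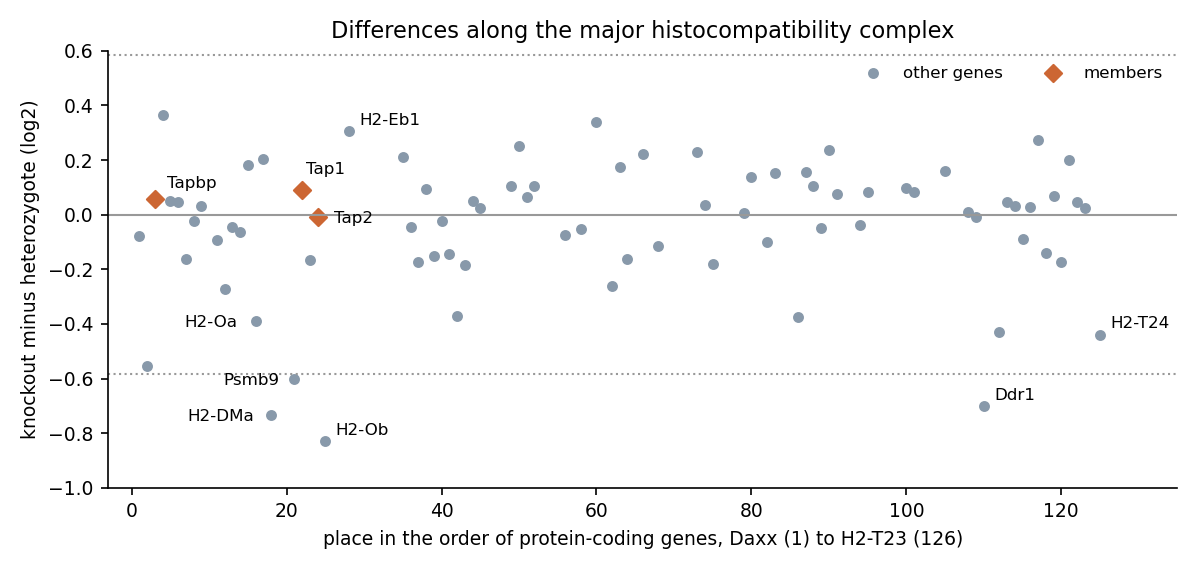
Log2 difference, knockout minus heterozygote (vertical), of 80 genes above the filter by their place in the order of protein-coding genes from Daxx to H2-T23 (horizontal, rank and not distance); members are orange diamonds and dotted lines mark 1.5-fold. Tapbp, Tap1 and Tap2 lie near 0, H2-DMa and H2-Ob beside Tap1 and Tap2 lie below the lower line, and Psmb9 is just past it, at -0.60 (-0.55 after centring).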

How the data were processed

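Total RNA was hybridised to Affymetrix arrays, 1 for each genotype. As deposited, the table holds log2 signals of genes that the authors computed with RMA in Affymetrix Expression Console 1.1, per the series design text and the submitters' processing notes; quantile normalization within RMA can shrink differences at the ends of the signal range. No genome build is stated for the probes. The 35556 rows were named through the platform's probe table: 21789 had 1 symbol, 1621 several and 12146 none. Only rows with 1 symbol were taken for a gene.

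Differences are knockout minus heterozygote on the log2 scale, with no further normalization. The filter was the 50th percentile of row means, and genes were counted by size, at 1.5-fold. Precision is limited by having 2 arrays. Cluster choice, filter and counts were tested on simulated data with planted differences of at least 2-fold and less noise than these arrays show. That checks the code and does not test counts near 1.5-fold. Alternatives were centring, removal of a loess trend (span 0.3), quantile normalization, averaged clusters, other filters, 2-fold, list means and added H2 rows. Named are the members, Taf7, Taf1, the ends of each list and the H2 rows with several symbols; other genes, the promoter stretches, the cluster spread and the gene order were chosen after values were seen. The members and lists were chosen with earlier results of these data known. Gene order and promoters came from RefSeq, GRCm38.p6. Scripts ran under Python 3.11.15 with pandas 2.3.3, loess under statsmodels 0.14.6, arrays under numpy 2.4.6, and plots under matplotlib 3.10.9.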

Additional observations from a re-analysis of the deposited data

How the results depend on the processing

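A single array stands for each genotype, so no setting drops an array. No paired analysis was possible because there is only 1 array on either side. The 28 values of single members under centring, loess, quantile normalization and averaged clusters all moved by less than the robust SD of genes of like signal, 6 of them across 0, and the largest move was 0.08. Averaging could change only Nlrc5, the other members having 1 cluster of their own, and centring moved every member alike. These settings therefore say little about stability. The members' median ran from -0.01 to 0.07 over its alternatives. The counts of members above and below 0 became 5 and 2 under centring, loess and quantile normalization, each of which removes a shift between the arrays in its own way. No member passed 1.5-fold under any setting. Genes at least 1.5-fold higher numbered 71 after centring, 91 without a filter and 16 with the filter at the 75th percentile, where 105 were lower; at 2-fold 4 were higher and 34 lower. With all measured genes, a setting added after the values were seen, the class II median was -0.061; the other 41 list medians stayed within 0.14 of the main ones.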

Other observations

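Genes of the major histocompatibility complex outside the lists were named after their values were seen. Zbtb22, a zinc finger gene beside Tapbp in the reference order, differed by -0.55 and Rgl2, on the other side of Tapbp, by 0.36. Ltb, which encodes lymphotoxin beta, differed by -0.38.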
